A study of Mus musculus with 11 samples.

Results

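RNA levels of 9 genes were followed in mouse macrophages: the matrix metalloproteinase genes Mmp9, Mmp12, Mmp13, Mmp14 and Mmp19, the tissue inhibitor genes Timp1 and Timp2, and the membrane protease genes Adam8 and Adam17. They were taken by symbol from the 42375 named genes of the count table, all 9 were present, and all 9 passed the filter on low counts that left 15024 genes. The libraries came from bone marrow derived macrophages of C57BL/6 mice in a state labelled M0 or M1. The cells had received for 16 hours a gapmer, an antisense oligonucleotide that directs cleavage of its target RNA, which was either labelled NS, taken here as the control, or directed against the long noncoding RNA MERRICAL (KD). M0 NS, M0 KD and M1 NS had 3 libraries each and M1 KD had 2. The comparisons ask how these genes differ between the states and with the gapmer within each state.

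Matrix metalloproteinases are zinc-dependent enzymes that cut collagen, elastin and other matrix proteins, as well as cytokines and chemokines. They are made as inactive precursors, most are secreted, and a few are anchored in the plasma membrane. The TIMP proteins bind the active site of the mature enzymes and block it. ADAM proteases are membrane-anchored relatives that release the outer parts of surface proteins, among them tumour necrosis factor. Macrophages make several of these enzymes, and atherosclerotic plaques, wounds and inflamed joints are places where they are studied. RNA was measured here, not enzyme secretion, activation or activity.

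Total counts ran from 30040632 to 43250392 per library. The label numbers are 1, 2 and 4 in M0 NS, M0 KD and M1 NS, but 5 and 6 in M1 KD, so whatever the numbers stand for cannot be told apart from the gapmer in M1. Whether the libraries of a group are separate cultures is not stated, so the p-values speak of the spread among these libraries only, and that spread may be technical. MERRICAL has no row under that name, and its own level was not analysed here. The share of mitochondrial counts was 1.02 to 1.14% in M0 NS, 1.28 to 1.45% in M0 KD, 0.488 to 0.891% in M1 NS and 0.522 to 0.727% in M1 KD. Levels are given in CPM, the count of a gene scaled to a common library total. All 8 macrophage markers were detected in each group, with a summed level of 25460 to 26790 CPM in M0 NS, 19200 to 20980 in M0 KD, 13220 to 15620 in M1 NS and 14310 to 17430 in M1 KD. Lyz2 was the largest part of that sum by group means, at 17460, 13186, 5639 and 7256 CPM in the same order. Of the 8 log2 differences between M1 NS and M0 NS, 4 were above 0 and 4 below. Between M0 KD and M0 NS, 1 was above 0 and 7 were below. Summed lymphocyte markers stayed below 1 CPM, and fibroblast markers between 1.76 and 26.6 CPM. The 4 endothelial markers summed to 47.1 to 70.8 CPM in M0 NS, 51.5 to 61.6 in M0 KD, 51.0 to 147 in M1 NS and 134 to 151 in M1 KD. The 4 dendritic cell markers summed to 7.45 to 7.80, 4.86 to 7.54, 10.1 to 14.0 and 13.9 to 18.5 CPM in the same order. Members of both lists differed in direction between M1 NS and M0 NS. There, 1 endothelial marker had a log2 difference above 0 and 3 below, and 2 dendritic cell markers were above 0 and 2 below. Between M1 KD and M1 NS, 3 endothelial markers were above 0 and 1 below, and all 4 dendritic cell markers were above 0. M0 NS replicate 4 and M0 KD replicate 4 stood apart from the other M0 libraries for Mmp12, Mmp9 and Timp1. For Mmp14, M0 NS replicate 4 was at 52.8 CPM, against 107 and 109 CPM in replicates 1 and 2. Calls of the 9 genes that change without the libraries numbered 4 are given with and without them.

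Mmp13 and Mmp12 are the first genes of a metalloproteinase cluster on mouse chromosome 9, and Timp2 differed more with the state than Timp1 did. The promoter windows of Mmp13, Mmp12 and Timp2 are printed, genes whose RNAs were higher with the gapmer in M1 cells. Mmp14 and Adam17, whose RNAs were lower there, have windows that are not printed. The windows are the 250 bases before a transcription start, from RefSeq on GRCm38.p6, which holds windows for 7 of the 9 genes. Mmp19, also higher there, has none. Capitals mark matches to TGANTCA, the core element bound by AP-1, the Fos and Jun family of transcription factors.

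Mmp13, chr9:7272264-7272513, plus strand: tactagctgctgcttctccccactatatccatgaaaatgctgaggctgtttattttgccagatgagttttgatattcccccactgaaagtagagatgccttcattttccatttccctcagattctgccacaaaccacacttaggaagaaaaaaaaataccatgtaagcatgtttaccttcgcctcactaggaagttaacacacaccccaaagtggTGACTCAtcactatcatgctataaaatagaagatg

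Mmp12, upstream start, chr9:7344147-7344396, plus strand: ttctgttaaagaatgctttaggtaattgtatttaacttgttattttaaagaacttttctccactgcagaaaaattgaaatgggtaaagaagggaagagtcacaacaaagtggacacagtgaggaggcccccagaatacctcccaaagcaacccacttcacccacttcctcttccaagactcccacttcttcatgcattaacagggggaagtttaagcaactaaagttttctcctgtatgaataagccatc

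Mmp12, downstream start, chr9:7347124-7347373, plus strand: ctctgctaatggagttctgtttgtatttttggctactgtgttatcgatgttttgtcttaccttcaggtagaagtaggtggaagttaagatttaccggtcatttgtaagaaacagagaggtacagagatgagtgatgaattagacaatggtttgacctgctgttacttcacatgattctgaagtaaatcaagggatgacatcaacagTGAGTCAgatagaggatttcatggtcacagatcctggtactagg

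Timp2, chr11:118355412-118355661, minus strand: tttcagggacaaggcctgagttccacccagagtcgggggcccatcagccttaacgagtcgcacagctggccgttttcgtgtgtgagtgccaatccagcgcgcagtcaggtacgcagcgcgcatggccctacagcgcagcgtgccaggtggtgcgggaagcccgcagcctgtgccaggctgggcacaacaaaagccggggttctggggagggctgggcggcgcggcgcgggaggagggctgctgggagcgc

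Mmp13 held TGANTCA with its first base 35 bases before the start, and the downstream Mmp12 start held it 44 bases before. On both strands, 6.75% of 32851 mouse windows of the same length held this element. The windows of Timp1, Timp2, Mmp14, Adam8 and Adam17 and the upstream start of Mmp12 did not. For Mmp14 alone, the bases after the start were not found in a GENCODE M21 transcript of the gene. The interferon-gamma-activated element TTCNNNGAA, found in 7.02% of all windows, was in none of the windows of the 7 genes. The NF-kappaB consensus, found in 7.25% of all windows, matched once, on the minus strand of the upstream Mmp12 window at 129 bases before the start. A match is a run of letters and was not tested as a binding site.

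Exon numbers below are those of a chosen annotated transcript of each gene, and other transcripts can have more or fewer. On GRCm38 with GENCODE M21, Mmp9 has 13 exons at chr2:164940780-164955850 and Mmp14 has 10 at chr14:54431612-54445364, and no other annotated gene overlaps either. Mmp13, with 10 exons at chr9:7272514-7283331, is free of overlaps as well. Mmp12, with 7 exons at chr9:7344381-7369499, overlaps Mmp1b on the other strand, which had 0 counts in every library. Mmp19, with 9 exons at chr10:128790910-128800824, overlaps Tmem198b on the other strand (102 to 482 counts per library). Timp1 has 6 exons at chrX:20870166-20874735 and lies within Syn1, which runs on the other strand (95 to 708 counts). Timp2 has 5 exons at chr11:118301069-118355740 on the minus strand and overlaps Cep295nl on the same strand. Adam8 has 22 exons at chr7:139978932-139992562 and Adam17 has 19 at chr12:21323509-21373632. Adam17 overlaps Iah1 (390 to 1129 counts) and Adam8 overlaps Gm16201 (38 to 168 counts), both on the other strand. The strand setting of the counting was not given in the sources used here, and without strand, reads from such overlaps cannot be told apart. This bears most on Timp1, whose own counts ran from 12 to 409.

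**Figure D1:**
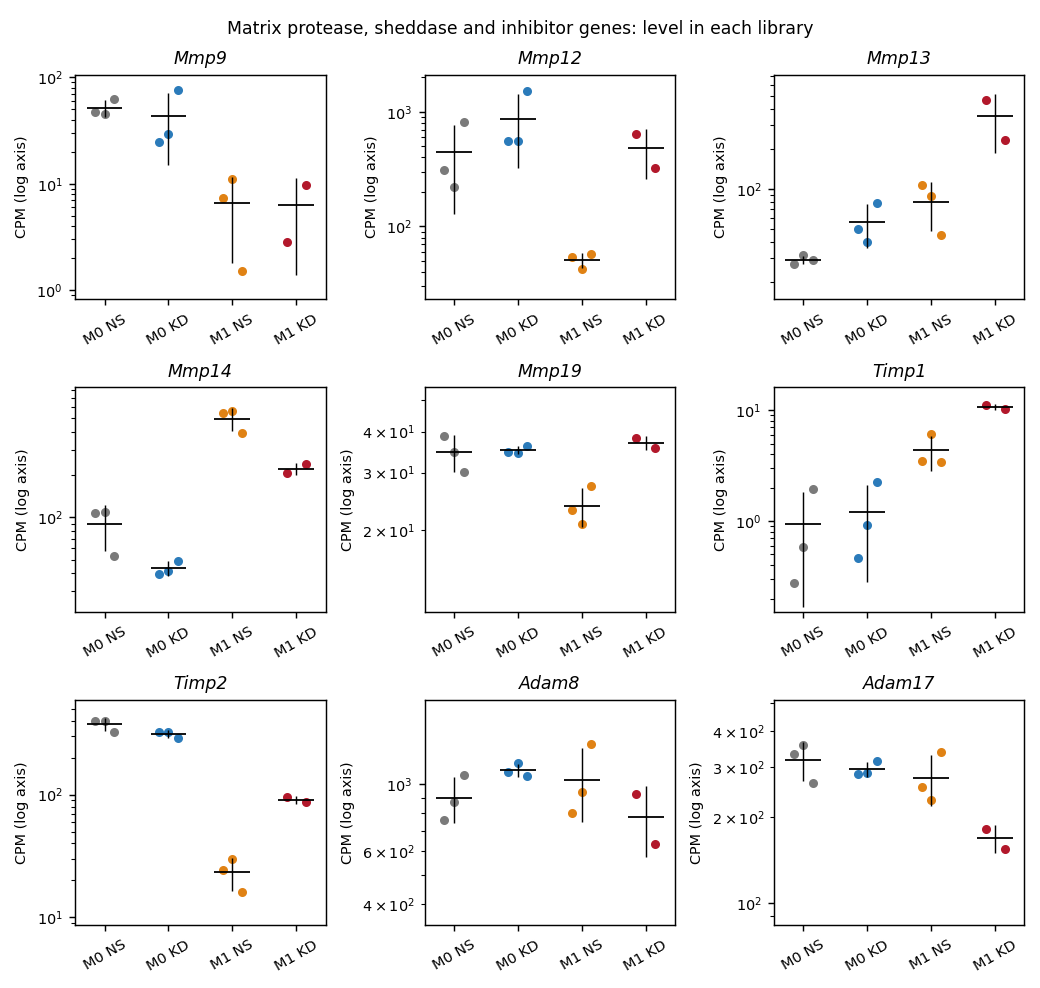
Level of each of the 9 genes in each of the 11 libraries, in CPM on a log axis. Points are libraries in the order of their label numbers, horizontal bars are group means and vertical bars are 1 SD (n = 3, and n = 2 for M1 KD). Mmp14 is highest in M1 NS, Mmp13 and Timp1 are highest in M1 KD, and Timp2 is lowest in M1 NS.

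Between M1 NS and M0 NS, 7 of the 9 genes passed an adjusted p of 0.05 in edgeR's quasi-likelihood test (Mmp13, Mmp14 and Timp1 higher, Mmp9, Mmp12, Mmp19 and Timp2 lower), where 55.5% of all genes tested did (26.9% higher, 28.6% lower). With the gapmer in M0 cells 0 of the 9 were called, and 0% of all genes were. At an unadjusted p under 0.05 there were 2 of the 9 (Mmp13 and Mmp14) and 13% of all genes, and DESeq2 called 1 of the 9 (Mmp14) and 181 genes in all. In M1 cells 6 of 9 were called with the gapmer (Mmp12, Mmp13, Mmp19 and Timp2 higher, Mmp14 and Adam17 lower), against 36.8% of all genes (17.6% higher, 19.2% lower). The difference between the gapmer effects in M1 and M0 was called for 3 of 9, all of them higher (Mmp12, Mmp19 and Timp2), against 27.3% of all genes (13.1% higher, 14.2% lower). The ranges of the compared groups did not overlap for 7 of the 9 genes between M1 NS and M0 NS (3 higher, 4 lower), where they did not for 61.4% of all genes (28.6% higher, 32.8% lower). For the gapmer they lay apart for 2 of 9 in M0 (1 higher, 1 lower; all genes 35.1%, 17.2% higher and 17.9% lower) and for 7 of 9 in M1 (5 higher, 2 lower; all genes 52.4%, 26.1% higher and 26.3% lower). The median log2 fold changes of the 9 genes in these comparisons were -0.21, 0.03, 0.64 and 0.61, beside -0.04, 0.00343, 0.00103 and -0.02 for all genes. The comparisons share groups (M0 NS in 3 of them, M1 NS in 3), so they are not independent of each other. In bulk RNA, fewer cells of a type and less RNA per cell cannot be told apart.

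**Figure D2:**
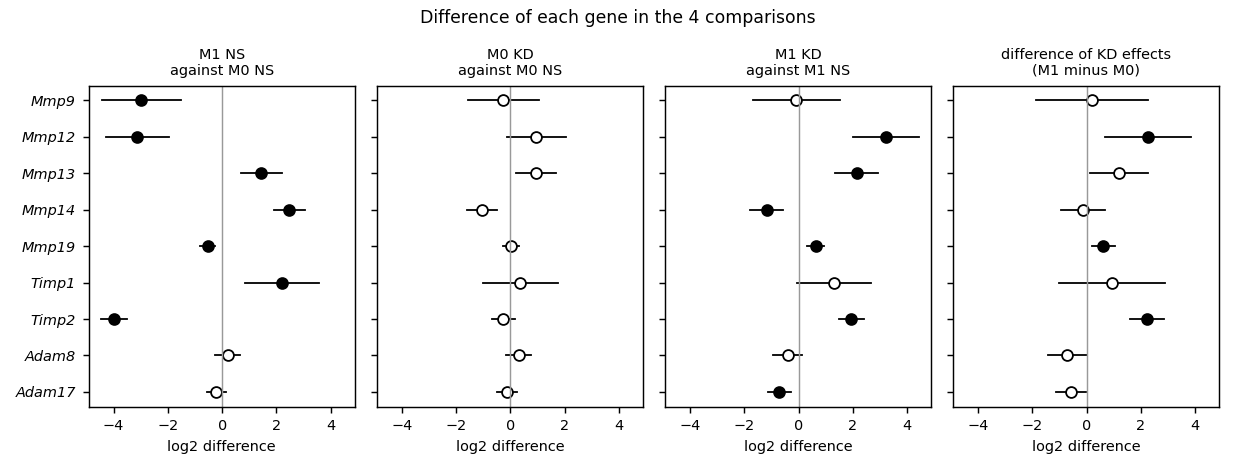
Log2 differences of the 9 genes in the 4 comparisons, with 95% confidence intervals as lines. Filled points have an adjusted p under 0.05 over all 15024 genes, and open points do not. Intervals of Mmp9 and Timp1 are the widest, and no point is filled for the gapmer in M0 cells.

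The scaling of the libraries matters for the comparison of states. With TMM factors 4044 genes were higher and 4294 lower in M1 NS than in M0 NS, so that 48.5% of the calls were higher. With library size as the only scaling the counts were 2348 and 6447, with 26.7% higher, and the median of all genes lay at -0.42 instead of -0.04. The direction of the 7 called genes held under both. The sign of Adam8 did not, and Adam17 was called lower with library size only, which made 8 of the 9 genes called.

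Mmp12 encodes macrophage elastase, which cuts elastin. In M0 NS it stood at 310, 220 and 815 CPM in replicates 1, 2 and 4, and in M0 KD at 555, 555 and 1511 CPM. Each M0 KD library was above the M0 NS library of the same number, but whether the numbers mark pairs is not given. In M1 NS it was at 53.9, 42.8 and 57.4 CPM, and in M1 KD at 640 and 323 CPM. M1 NS lay below every other library, and the M1 KD libraries lay within the range of M0 NS. The order of group means was M0 KD, M1 KD, M0 NS and M1 NS, and the ranges of the first 3 overlapped. Mmp12 was lower in M1 NS than in M0 NS, by a log2 difference of -3.13 (SE 0.53, adjusted p = 0.000311), or -2.37 without M0 NS replicate 4 and -2.44 without the libraries numbered 4. With the gapmer in M1 cells it rose by 3.23 on the log2 scale (SE 0.56, adjusted p = 0.001003), which is 9.37-fold, and by 2.64 without M1 KD replicate 5. In M0 cells the difference of 0.96 was not called (95% confidence interval -0.11 to 2.03, adjusted p = 0.417). Leaving out M0 NS replicate 4 moved that M0 value of Mmp12 to 1.72, with an adjusted p of 0.289. Leaving out M0 KD replicate 4 moved it to 0.31, with an adjusted p of 0.809. It was called with no filter on low counts (0.95, 4.87e-05).

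Within M0, replicate 4 held the highest Mmp12 level of its group with either gapmer. The gapmer effect on Mmp12 was larger in M1 than in M0 by 2.27 (SE 0.73, adjusted p = 0.0375). This call for Mmp12 was lost without M0 NS replicate 4 (1.51, adjusted p = 0.0979), M0 KD replicate 1 (2.03, 0.0898), M0 KD replicate 2 (2.03, 0.0881), M1 NS replicate 1 (2.30, 0.0708), M1 NS replicate 2 (2.15, 0.0879), M1 NS replicate 4 (2.40, 0.0749) and M1 KD replicate 5 (1.68, 0.185), and it was 2.92 (0.0115) without M0 KD replicate 4. It was also lost with library size as the only scaling (2.18, adjusted p = 0.0512).

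Mmp13 encodes collagenase 3, which cuts fibrillar collagen. Its level was 27.2, 31.6 and 29.0 CPM in M0 NS, 50.1, 39.5 and 78.7 CPM in M0 KD, 107, 87.6 and 45.0 CPM in M1 NS, and 468 and 234 CPM in M1 KD. Both M1 KD libraries lay above all others, all M0 NS libraries below all others, and the ranges of M0 KD and M1 NS overlapped. It was the only one of the 9 genes that was called higher both with M1 and with the gapmer in M1. The log2 fold change was 1.45 between M1 NS and M0 NS (SE 0.34, adjusted p = 0.00306) and 2.14 between M1 KD and M1 NS (SE 0.37, adjusted p = 9.522e-04), with 1.55 for the second without M1 KD replicate 5. In M0 cells the M0 KD libraries were above the M0 NS libraries without overlap, as were those of 17.2% of all genes, and the difference of 0.94 (SE 0.34) had an unadjusted p of 0.0159 and an adjusted p of 0.323. With no filter on low counts that difference of Mmp13 was called (0.93, adjusted p = 1.11e-05). The difference of effects was 1.20 (95% confidence interval 0.12 to 2.27, adjusted p = 0.0923). It was called without M0 KD replicate 4 (1.52, adjusted p = 0.0438), without M1 KD replicate 6 (1.61, 0.0447), without the libraries numbered 4 (1.27, 0.0431), in DESeq2 (1.23, 0.0379) and with no filter on low counts (1.22, 1.42e-05). Without M1 KD replicate 5 the difference of effects on Mmp13 was 0.61 (adjusted p = 0.45).

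Mmp9 encodes gelatinase B, which cuts denatured collagen and basement membrane collagen. It was at 47.7, 45.1 and 62.2 CPM in M0 NS, at 24.9, 29.1 and 75.8 CPM in M0 KD, at 7.28, 11.1 and 1.52 CPM in M1 NS, and at 2.83 and 9.80 CPM in M1 KD. All M0 libraries were above all M1 libraries, and within each state the ranges of the 2 gapmers overlapped. Mmp9 was lower in M1 NS than in M0 NS, by a log2 difference of -2.98 (SE 0.66, adjusted p = 0.0025), or -2.32 without the libraries numbered 4. With the gapmer the log2 difference was -0.25 in M0 (95% confidence interval -1.57 to 1.06, adjusted p = 0.867) and -0.08 in M1 (-1.67 to 1.52, adjusted p = 0.946). These intervals are wide enough to hold changes of 2-fold or more in both directions. The difference of effects was 0.18 (-1.89 to 2.24, adjusted p = 0.910). Without the libraries numbered 4 the gapmer difference of Mmp9 in M0 was -0.78 (adjusted p = 0.445).

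Mmp9 is also made by neutrophils, for which 15 markers were read in these libraries. Their summed level was 1321 to 2309 CPM in M0 NS, 742 to 764 CPM in M0 KD, 242 to 315 CPM in M1 NS and 209 to 227 CPM in M1 KD, and 14 of the 15 were called lower in M1 NS than in M0 NS. With the gapmer in M0 all 15 had a log2 difference below 0 (median -1.19), and 0 were called. The part of neutrophils in the Mmp9 difference was not tested.

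Mmp19 encodes a broadly expressed secreted metalloproteinase of basement membrane substrates. Its group means lay closer together than those of the other metalloproteinase genes here. The levels were 38.9, 34.7 and 30.1 CPM in M0 NS, 34.8, 34.6 and 36.3 CPM in M0 KD, 23.1, 20.9 and 27.3 CPM in M1 NS, and 38.2 and 35.7 CPM in M1 KD. M1 NS was below all other libraries, and the other groups overlapped in range. Mmp19 fell by 0.54 on the log2 scale with M1 (SE 0.13, adjusted p = 0.0037) and rose by 0.64 with the gapmer in M1 cells (SE 0.14, adjusted p = 0.00489). In M0 the difference was 0.03 (95% confidence interval -0.25 to 0.31, adjusted p = 0.941).

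The gapmer effects on Mmp19 differed by 0.61 between M1 and M0 (SE 0.19, adjusted p = 0.0353), and this call was lost in 11 of 18 alternatives, with adjusted p up to 0.111. Without 1 library it was lost for M0 NS replicate 1 (0.51, adjusted p = 0.092), M0 NS replicate 2 (0.61, 0.0704), M0 KD replicate 1 (0.60, 0.0769), M0 KD replicate 2 (0.60, 0.0763) and M0 KD replicate 4 (0.63, 0.0581). The same held for M1 NS replicate 1 (0.59, 0.0737), M1 NS replicate 2 (0.52, 0.0508), M1 KD replicate 5 (0.56, 0.111) and M1 KD replicate 6 (0.66, 0.0562). Library size as the only scaling (0.50, 0.0954) and no filter on low counts (0.63, 0.059) ended it too.

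Mmp14 encodes MT1-MMP, a membrane-anchored collagenase that also activates the secreted precursor of MMP2. Its RNA was at 107, 109 and 52.8 CPM in M0 NS, at 39.3, 41.8 and 49.2 CPM in M0 KD, at 542, 562 and 391 CPM in M1 NS, and at 205 and 236 CPM in M1 KD. The 4 groups did not overlap, in the order M1 NS, M1 KD, M0 NS and M0 KD. Mmp14 was higher in M1 NS than in M0 NS by 2.47 (SE 0.26, adjusted p = 6.03e-06), which is 5.55-fold. With the gapmer in M1 cells it fell by 1.18 on the log2 scale (SE 0.28, adjusted p = 0.00692), and this call was lost without M1 KD replicate 5 (-1.08, adjusted p = 0.0613). In M0 cells the log2 difference was -1.05 (SE 0.25), with an unadjusted p of 0.00115 and an adjusted p of 0.222. It was called there without the 3 libraries numbered 4 (-1.42, adjusted p = 0.0102), in DESeq2 (-1.06, 0.00874) and with no filter on low counts (-1.06, 7.86e-07). The difference between the effects was -0.13 (95% confidence interval -0.93 to 0.67, adjusted p = 0.824).

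Timp2 encodes an inhibitor that also takes part in the activation of the MMP2 precursor by MT1-MMP. It stood at 401, 400.2 and 325 CPM in M0 NS and at 323, 326 and 287 CPM in M0 KD. In M1 NS it was at 24.5, 30.2 and 16.0 CPM, and in M1 KD at 95.8 and 86.4 CPM. The M1 KD libraries lay between M1 NS and M0, with no overlap on either side, and the ranges of M0 NS and M0 KD overlapped slightly. With M1 the level of Timp2 was 16.0-fold lower, -4.00 on the log2 scale (SE 0.22, adjusted p = 3.66e-08). With the gapmer in M1 cells it rose by 1.95 (SE 0.22, adjusted p = 5.88e-05), or 3.87-fold. In M0 cells the difference was -0.27 (95% confidence interval -0.69 to 0.16, adjusted p = 0.542).

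The gapmer effect on Timp2 was larger in M1 than in M0 by 2.22 (SE 0.29, adjusted p = 3.81e-04). It was the one call of this kind among the 9 genes that held in all 18 alternatives, with values from 2.04 to 2.43.

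Timp1 encodes a secreted inhibitor that many cells induce in inflammation, and its counts were low. M0 NS gave 0.279, 0.588 and 1.95 CPM and M0 KD 0.463, 0.916 and 2.24 CPM, while M1 NS gave 3.50, 6.06 and 3.44 CPM and M1 KD 11.2 and 10.2 CPM. In counts, these were 12 to 82, 18 to 108, 120 to 153 and 278 to 409 per library. In M0 the library numbered 4 was the highest with either gapmer, and the M1 libraries were all above the M0 libraries. Timp1 was higher in M1 NS than in M0 NS by 2.19 (SE 0.62, adjusted p = 0.00995), a value that became 3.32 without M0 NS replicate 4 and 3.48 without the libraries numbered 4. Both M1 KD libraries were above M1 NS, as were those of 26.1% of all genes, but the difference of 1.31 was not called (95% confidence interval -0.05 to 2.67, adjusted p = 0.12). It was called with only the 2 groups in the fit (1.35, adjusted p = 0.0163), without the libraries numbered 4 (1.19, 0.0204) and with no filter on low counts (1.32, 7.44e-05). In M0 the difference was 0.37 (-1.002 to 1.75, adjusted p = 0.803), and the difference of effects was 0.94 (-1.01 to 2.88, adjusted p = 0.467). Without the libraries numbered 4 the M0 difference of Timp1 was 0.69 (adjusted p = 0.577).

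Adam17 encodes TACE, the main sheddase of tumour necrosis factor and its receptors. Its level was 333, 357 and 263 CPM in M0 NS, 283, 286 and 314 CPM in M0 KD, 256, 230 and 337 CPM in M1 NS, and 182 and 155 CPM in M1 KD. The first 3 groups overlapped, and M1 KD was below all of them. Adam17 fell by 0.70 on the log2 scale with the gapmer in M1 cells (SE 0.19, adjusted p = 0.0139), a level 1.63-fold lower. The call was lost without M1 KD replicate 6 (-0.60, adjusted p = 0.0969) and with only the 2 groups in the fit (-0.66, 0.0721). Between M1 NS and M0 NS the difference was -0.21 (95% confidence interval -0.58 to 0.16, adjusted p = 0.310), but it was called without M1 NS replicate 4 (-0.38, adjusted p = 0.045), without the libraries numbered 4 (-0.49, 0.0103) and with library size as the only scaling (-0.59, 0.0132). In M0 the difference with the gapmer was -0.11 (-0.48 to 0.26, adjusted p = 0.782). The difference of effects was -0.59 (-1.15 to -0.04, adjusted p = 0.104), and it was called without M1 NS replicate 2 (-0.71, 0.0492).

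Adam8 encodes a sheddase of leukocytes that cuts adhesion molecules. It was the most abundant of the 9 RNAs per kilobase of exon in each library group, at 34.9 to 65.4% of their summed CPM per kilobase. Its levels were 759, 869 and 1069 CPM in M0 NS, 1092, 1171 and 1064 CPM in M0 KD, 799, 943 and 1349 CPM in M1 NS, and 925 and 631 CPM in M1 KD. No comparison of Adam8 was called, and the ranges overlapped in each. The log2 differences were 0.20 for M1 NS against M0 NS (95% confidence interval -0.28 to 0.67, adjusted p = 0.466), 0.30 for the gapmer in M0 (-0.17 to 0.78, 0.537) and -0.41 for the gapmer in M1 (-0.94 to 0.13, 0.216). The difference of effects was -0.71 (-1.42 to 0.00493, adjusted p = 0.129).

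The make-up of the RNA of the 5 metalloproteinase genes followed here differed between the groups. Other metalloproteinase genes are left out of these sums, among them Mmp25 (mean 39.3 CPM per kilobase in M1 NS) and Mmp8 (28.5 in M0 NS). As a share of the summed CPM per kilobase of the 5 genes, Mmp12 held 36.6 to 71.1% in M0 NS, 64.5 to 75.1% in M0 KD, 4.16 to 8.05% in M1 NS and 24.1 to 28.6% in M1 KD. Mmp14 held 61.9 to 66.6% in M1 NS and 11.1 to 21.5% in M1 KD, while it held 5.59 to 22.0% in M0 NS and 2.96 to 6.02% in M0 KD. Mmp13 was the largest share in both M1 KD libraries, at 56.6 and 47.4%, compared with 17.1 to 27.2% in M1 NS. Per kilobase, Mmp12 thus led in every M0 library, Mmp14 in every M1 NS library and Mmp13 in both M1 KD libraries. The lead of Mmp13 depends on the exon lengths, 7.237 kb for Mmp12 and 2.673 kb for Mmp13, which pool all annotated exons of a gene. In CPM, Mmp12 was above Mmp13 in both M1 KD libraries (640 against 468 in replicate 5, 323 against 234 in replicate 6).

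The summed CPM per kilobase of the 2 inhibitor genes, divided by that of the 5 metalloproteinase genes, was 1.08, 1.24 and 0.54 in M0 NS and 0.701, 0.727 and 0.274 in M0 KD. It was 0.0696, 0.103 and 0.0811 in M1 NS and 0.12 and 0.182 in M1 KD. All M1 ratios were below all M0 ratios, and both M1 KD ratios were above the M1 NS ratios. Replicate 4 had the lowest ratio of its group in M0 with either gapmer, where Mmp12 was highest. Timp1 made up 0.305 to 3.3% of the inhibitor RNA per kilobase in M0 libraries, 38.5 to 48.5% in M1 NS and 34 to 34.1% in M1 KD. These ratios are of RNA, depend on the exon lengths used and carry no test of their own.

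**Figure D3:**
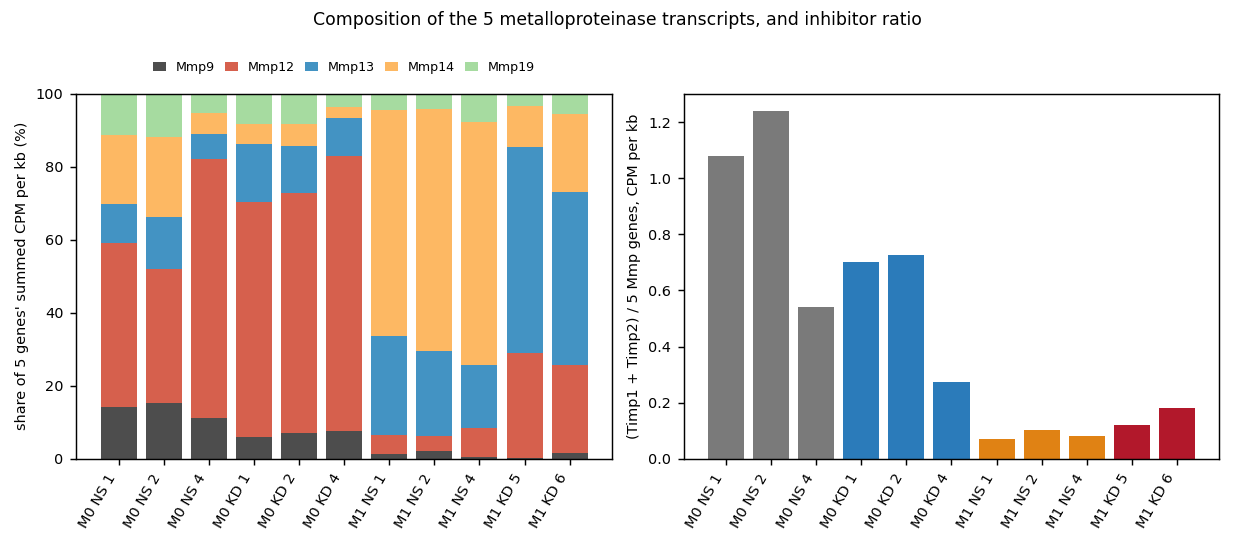
Left, stacked shares of the 5 metalloproteinase genes in their summed CPM per kilobase of exon, in percent, for each of the 11 libraries. Right, summed CPM per kilobase of Timp1 and Timp2 divided by that of the 5 genes. Per kilobase, Mmp12 leads in M0, Mmp14 in M1 NS and Mmp13 in M1 KD, where Mmp12 is above Mmp13 in CPM. The ratio falls from between 0.274 and 1.24 in M0 to between 0.0696 and 0.182 in M1.

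Mmp13 and Mmp12 lie at the start of a row of 10 metalloproteinase genes at chr9:7272514-7699585, a span of 427.1 kb. In genomic order these are Mmp13, Mmp12, Mmp1b, Mmp3, Mmp1a, Mmp10, Mmp8, Mmp27, Mmp20 and Mmp7. Mmp13, Mmp12, Mmp8 and Mmp27 passed the filter, and the other 6 had at most 19 counts in any library. Mmp8, the neutrophil collagenase, was at 65.9, 59.8 and 81.6 CPM in M0 NS, 61.7, 64.0 and 40.9 CPM in M0 KD, 5.32, 5.66 and 5.02 CPM in M1 NS, and 18.5 and 8.96 CPM in M1 KD. It was lower in M1 NS than in M0 NS, by a log2 difference of -3.70 (SE 0.27, adjusted p = 3.22e-07) and higher in M1 KD than in M1 NS by 1.37 (SE 0.28, adjusted p = 0.00252). Mmp27, the neighbour of Mmp8, had a log2 fold change of -3.92 in the first of these comparisons (SE 0.18, adjusted p = 8.45e-09) and one of 1.78 in the second (SE 0.19, adjusted p = 4.68e-05). Mmp12, Mmp8 and Mmp27 thus fell with M1 and rose with the gapmer in M1, and Mmp13 rose in both. The call of Mmp8 in M1 KD was lost without M1 KD replicate 5 (0.74, adjusted p = 0.0587).

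Mmp8 is itself among the 15 neutrophil markers, whose sum was 209 to 227 CPM in M1 KD and 242 to 315 CPM in M1 NS. Lcn2, the largest part of that sum, had means of 151 CPM in M1 KD and 136 CPM in M1 NS. Of the 15 markers, 2 were called higher and 3 lower in M1 KD than in M1 NS, and their part in the difference of Mmp8 was not tested.

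**Figure D4:**
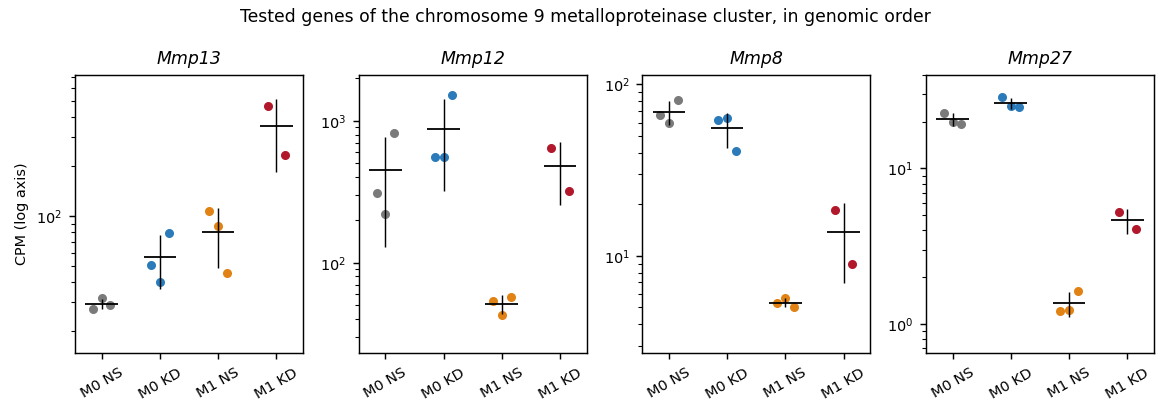
Level in CPM on a log axis of the 4 tested genes of the chromosome 9 cluster, in genomic order, in each library of the 4 groups, with group means and 1 SD (n = 3, and n = 2 for M1 KD). M1 NS is the lowest group for Mmp12, Mmp8 and Mmp27, while Mmp13 is lowest in M0 NS and highest in M1 KD.

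Related genes were counted from lists chosen for their roles. The shares of all genes to set beside these counts are 26.9% higher and 28.6% lower in M1 NS against M0 NS. For M1 KD against M1 NS they are 17.6% higher and 19.2% lower. Of 18 other metalloproteinase genes 8 were tested. Between M1 NS and M0 NS 1 of them was higher, the membrane-anchored Mmp25 (7.75, SE 0.71, adjusted p = 3.32e-06), and 4 were lower. With the gapmer in M1 cells 3 were higher and 1 was lower. The one that fell was Mmp2, the gelatinase whose precursor MT1-MMP activates (-3.01, SE 0.44, adjusted p = 3.18e-04). Mmp2 was at 2.72 to 5.62 CPM in M1 NS and at 0.329 and 0.576 CPM in M1 KD, where it had 9 to 21 counts.

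Of 8 other protease inhibitors, all tested, 4 were higher and 2 lower in M1 NS than in M0 NS, and 1 was higher and 2 were lower in M1 KD than in M1 NS. Cst3, which encodes the cysteine protease inhibitor cystatin C, fell by 1.05 with M1 (SE 0.21, adjusted p = 9.50e-04) and rose by 1.11 with the gapmer in M1 (SE 0.23, adjusted p = 0.00268). Timp3 was not called in any comparison, and Timp4 was not called either.

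Plasmin activates several metalloproteinase precursors, and 6 of 7 genes of the plasminogen system were tested. All 6 were higher in M1 KD than in M1 NS, where 17.6% of all genes were, and 2 were higher and 2 lower in M1 NS than in M0 NS. Plau, which encodes the plasminogen activator urokinase, fell by 3.30 with M1 (SE 0.58, adjusted p = 5.05e-04) and rose by 2.19 with the gapmer in M1 (SE 0.59, adjusted p = 0.0141). The rise of Plau was not called without M1 KD replicate 5 (1.36, adjusted p = 0.174). S100a10, a subunit of a cell surface plasminogen receptor, fell by 1.09 with M1 (SE 0.18, adjusted p = 2.52e-04) and rose by 1.18 with the gapmer in M1 (SE 0.20, adjusted p = 7.86e-04).

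ADAM17 depends on iRhom proteins and ADAM10 on tetraspanins to reach the cell surface. Of 13 genes for such partners and for proprotein convertases, 11 were tested, of which 4 were higher and 5 lower in M1 NS than in M0 NS, and 2 higher and 2 lower in M1 KD than in M1 NS. Rhbdf2, which encodes iRhom2, rose by 2.16 with M1 (SE 0.16, adjusted p = 2.99e-07) and fell by 0.63 with the gapmer in M1 (SE 0.17, adjusted p = 0.0129), beside the fall of Adam17 by 0.70. That fall of Rhbdf2 was not called without M1 KD replicate 5 (-0.53, adjusted p = 0.0991). Tspan14 fell by 0.95 (SE 0.13, adjusted p = 2.75e-04) and Tspan5 rose by 1.32 (SE 0.18, adjusted p = 2.55e-04) with the gapmer in M1.

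Of 20 surface proteins that these proteases release 19 were tested, with 9 higher and 5 lower in M1 NS than in M0 NS, and 3 higher and 5 lower in M1 KD than in M1 NS. Tnf, the substrate for which Adam17 is best known, rose by 5.09 with M1 (SE 0.25, adjusted p = 1.72e-08) and fell by 1.36 with the gapmer in M1 (SE 0.25, adjusted p = 0.00143). Trem2, a lipid receptor of macrophages, fell by 3.68 with M1 (SE 0.33, adjusted p = 1.73e-06) and rose by 2.98 with the gapmer in M1 (SE 0.34, adjusted p = 6.35e-05). Of 14 other ADAM and ADAMTS genes 10 were tested, with 1 higher and 6 lower with M1, and 2 higher and 3 lower with the gapmer in M1.

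Of 16 matrix protein genes 15 were tested, and with the gapmer in M1 cells 2 were higher and 1 was lower. Spp1, which encodes osteopontin, rose by 2.54 (SE 0.33, adjusted p = 1.43e-04), and Thbs1, which encodes thrombospondin, fell by 1.07 (SE 0.22, adjusted p = 0.00293). Among 6 surface partners, 2 were higher and 1 was lower in that comparison. Lrp1, an endocytic receptor that clears metalloproteinases and TIMPs, fell by 1.95 (SE 0.36, adjusted p = 0.00161), and Cd63, the tetraspanin that binds TIMP1, rose by 1.06 (SE 0.14, adjusted p = 1.98e-04). With M1, 2 matrix genes were higher and 3 lower, and 3 of the surface partners were lower.

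All 9 AP-1 factor genes were tested, since the element printed above in capitals is theirs. In M1 KD against M1 NS 5 were higher and 1 was lower, where 17.6% of all genes were higher and 19.2% lower. Fosb (5.65, SE 0.32, adjusted p = 1.91e-06) and Fos (1.70, SE 0.15, adjusted p = 1.63e-05) had the largest rises. Fosb stood at 0.258 to 0.713 CPM in M1 NS and at 21.1 and 23.4 CPM in M1 KD, above its mean of 1.70 ± 0.26 CPM in M0 NS (SD, n = 3). Fosl1, named after its values were seen, was the one that fell, from 5.50 to 7.17 CPM in M1 NS to 0.183 and 0.220 CPM in M1 KD. No test links these factors to Mmp12 or Mmp13.

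Across the 11 libraries, the genes most like each of the 9 in log2 CPM were sought among 8322 genes whose log2 CPM averaged 3 or more. Pearson's r is given as a description, since the libraries share groups. For Mmp12 they were Qpct (0.99) and Spp1 (0.98), for Mmp13 Tpx2 (0.96) and Rgs1 (0.96), and for Mmp9 Clstn1 (0.98) and Tmem176b (0.97). Mmp14 was closest to Vasp (0.99) and Slc31a2 (0.99), and Mmp19 to Rora (0.98) and Slc38a9 (0.98). Timp2 was closest to Pxmp4 (0.99) and Itm2b (0.99), and Timp1 to Bhlhe40 (0.97) and Med9 (0.96). Adam17 was closest to Prpf18 (0.97) and Rnf19a (0.97), and Adam8 reached only 0.87 with Rnf128 and 0.86 with Ddx31. Among the 9 genes themselves, r was highest for Timp2 with Mmp9 (0.84) and lowest for Timp2 with Mmp14 (-0.90).

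Osteoclasts, the bone-resorbing relatives of macrophages, also make metalloproteinases, and their markers were read beside the M1 results. The summed level of 6 osteoclast markers was 47.1 and 56.8 CPM in M1 KD against 19.5 to 24.1 CPM in M1 NS, and 13.3 to 37.6 CPM in M0 libraries. Acp5 was the largest part of that sum, with means of 32.9 CPM in M1 KD and 14.3 CPM in M1 NS. Of 4 tested, 3 had a log2 difference above 0 in M1 KD against M1 NS and 1 below. Acp5 (1.20, SE 0.26, adjusted p = 0.00391) and Ctsk (2.09, SE 0.41, adjusted p = 0.002) were called higher in M1 KD than in M1 NS, and 0 were called lower. Dcstamp had means of 2.68 CPM in M1 KD and 3.03 CPM in M1 NS, and Ocstamp 5.05 and 1.87 CPM. Calcr, the calcitonin receptor gene and a defining marker, was at 0 in all M1 NS libraries and at most 0.0731 CPM in M1 KD. The part of such cells in the rise of Mmp12 and Mmp13 was not tested.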

How the data were processed

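RNA was measured in 11 libraries of mouse bone marrow derived macrophages. Trimmomatic 0.36, STAR 2.5.2b, Subread 1.5.2, featureCounts and GRCm38 are listed per the submitters' processing notes. The annotation, strand setting, M1 stimulus and treatment of shared reads were not given in the sources used here. The deposited count table holds raw counts for 42375 named genes, and 1 row without a name (at most 0.000305% of counts) was left out. The authors' second table holds a normalized signal for 22812 genes, each value of which is the raw count over a library constant; its genes have totals of 6 or more.

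Counts were tested with edgeR 4.0.16 in R 4.3.3: filterByExpr by group (minimum count 10, minimum total 15), TMM factors, glmQLFit (robust) and glmQLFTest over all 11 libraries and 4 groups, with Benjamini-Hochberg adjustment over 15024 genes and a threshold of 0.05. Adjusted p-values and 95% confidence intervals in the text come from this fit unless another is named. CPM are counts scaled by the TMM library size. Intervals rest on the libraries' spread, and depth limits low genes such as Timp1. CPM per kilobase uses the exon length of GENCODE M21 gene models, with positions from the same annotation. The procedure was tested on simulated data in which far fewer genes changed than were called between the states here. That test therefore does not bear on the choice of scaling.

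The 9 genes, the related lists and the markers were chosen with earlier results of these data known. Named from each related list were the called genes with the largest rises and falls (up to 2 each) whose log2 CPM averaged 0 or more, and some of those are printed; 1 such gene is not reported here. Alternatives were DESeq2 1.42.0, limma-trend (limma 3.58.1) on log2 of the deposited normalized signal plus 1, other scaling factors and filters, fits of 2 groups only, a block for the label number, and each library left out. Leaving out the 3 libraries numbered 4 was added after seeing the data. Label numbers were not used to pair libraries.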

Additional observations from a re-analysis of the deposited data

Results flagged for a closer look

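For 3 of the 9 genes the gapmer effect in M1 cells differed from that in M0 cells by a test of the difference itself, edgeR's quasi-likelihood test with adjustment over all genes. The effect on Timp2 was larger in M1 by 2.22 on the log2 scale (adjusted p = 3.81e-04, range over alternatives 2.08e-16 to 0.00228), from a rise in both M1 KD libraries and a difference of -0.27 in M0. The effect on Mmp12 was larger in M1 by 2.27 (adjusted p = 0.0375, range 1.28e-15 to 0.185), with M1 KD above M1 NS in 2 of 2 libraries. In M0 the ranges of Mmp12 overlapped, and the difference of 0.96 was not called (adjusted p = 0.417). The effect on Mmp19 was larger in M1 by 0.61 (adjusted p = 0.0353, range 0.00648 to 0.111), again with 2 of 2 M1 KD libraries above M1 NS. Among all genes tested 27.3% passed this test, and the label numbers of M1 KD cannot be told apart from its gapmer effect.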

How the results depend on the processing

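The 9 genes were recomputed under 18 to 20 alternatives for each comparison. Of 693 values, 636 kept their direction and side of the threshold, 22 lost a call, 17 gained one and 18 changed sign. For the gapmer in M0, with 0 genes called in the reported fit, DESeq2 called 1 of the 9 genes and 181 in all, no filter on low counts 3 and 385, the 2 groups alone 1103 in all, and the fit without the 3 libraries numbered 4 called 1 and 122. Leaving out 1 library gave 0 to 1 called gene there. For the gapmer in M1, the 5535 genes became 3104 with the 2 groups alone and 3658 to 5796 with 1 library left out (fewest without M1 KD replicate 5). For the difference of effects, 3 of the 9 genes became 1 with library size as the only scaling and 1 to 3 with 1 library left out. The count rose to 4 in DESeq2 and to 4 without the 3 libraries numbered 4.

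The 18 changes of sign were of values not called in either fit. With 1 library left out, Mmp9 ran from -1.22 to 0.572 for the gapmer in M1 (0.104 in limma-trend), from -0.935 to 0.022 in M0 and from -0.959 to 0.859 for the difference of effects. Adam8 ran from -0.035 to 0.353 between M1 NS and M0 NS and was -0.183 with library size as the only scaling. Timp1 ran from -0.442 to 1.503 in M0 and from -0.194 to 1.75 for the difference of effects. Mmp19 in M0 ran from -0.066 to 0.121 and was -0.090 without the libraries numbered 4. The difference of effects of Mmp14 ran from -0.294 to 0.141 and was 0.115 without those libraries. The cause was not tested.

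With the label number as a replicate block over 9 libraries, 7 of the 9 genes and 8048 genes in all were called for M1 NS against M0 NS, and 0 and 0 for the gapmer in M0, so no call of the 9 genes changed. Correlations of the deviations of same-numbered libraries ran from -0.115 to 0.135, and 1 of 9 libraries correlated best with its own number in both other groups. For numbers 1, 2 and 4 they were 0.135, 0.0221 and 0.124 between M0 NS and M0 KD. Between M0 NS and M1 NS they were 0.0899, -0.0752 and -0.0825, and between M1 NS and M0 KD 0.0127, -3.12e-04 and -0.115. No paired analysis was possible with M1 KD because no other group has its numbers.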
